A study of Mus musculus with 6 samples.

Results

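The 300 most abundant circular RNAs of APP/PS1 mouse brain samples are described here, chosen from 11824 circular RNA rows of a table that also held gene rows. Each row's counts were expressed as CPM, that is, scaled so that the circular RNA counts of a library sum to 1e6, averaged over the 3 libraries of vehicle-treated mice, and the 300 rows of highest mean were kept, so the vehicle levels chose the members and are given as a description. All mice were 8 months old and carried APP/PS1, a pair of human transgenes that leads to amyloid plaques in the brain. The AVE0991 group was given 10 mg per kg of AVE0991, a non-peptide agonist of the Mas receptor, by intraperitoneal injection each day for 30 days, and the vehicle group was given saline by the same schedule. There were 3 libraries in each group, made from total RNA after removal of ribosomal RNA. No label ties a library to its own animal, so the p-values cover the spread between libraries, and that spread may be technical. The sources used here name neither the promoter of the transgenes nor the way in which astrocytes were isolated.

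A circular RNA forms by back-splicing, in which the end of a downstream exon is joined to the start of an upstream one, so that the molecule has no free ends and resists exonucleases. Circular RNAs are known to be abundant in the mammalian brain, many of them in neurons and at synapses, and some bind microRNAs or RNA-binding proteins. The files identify each row by a mmu_circ number and do not pair it with a host gene, a position, a sequence or a length. The members are therefore called here by their rank in the vehicle mean, with rank 1 as the highest. Because the counts were not divided by length, a rank orders counts and not molecules.

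Circular RNA rows held 1519097, 1425593 and 1581448 counts in AVE0991 replicates 1, 2 and 3, against 1434587, 1424780 and 1432683 in vehicle replicates 1, 2 and 3. They made up 2.94%, 2.88% and 3.30% of all counts in AVE0991 libraries and 3.12%, 2.83% and 2.85% in vehicle libraries, and the groups overlapped (difference 0.11 percentage points, two-sided exact permutation p = 0.5, where 0.10 is the smallest p that 3 against 3 libraries allow). The labels name astrocytes, and all 8 astrocyte markers were measured, with a summed level of 6215 to 7551 CPM of gene counts in AVE0991 and 5487 to 6887 CPM in vehicle libraries. Aldoc (1536 to 2389 against 1136 to 1265 CPM), Slc1a3, Aldh1l1, Sox9 and Gfap were each higher in all AVE0991 than in all vehicle libraries. Slc1a2, the largest part of the sum, was at 2637 to 3073 CPM in AVE0991 and 3019 to 4307 CPM in vehicle libraries. In Gja1 and Aqp4 the groups overlapped. None of the 8 passed edgeR's test over all genes at an adjusted p under 0.05. The 8 neuron markers, all measured, summed to 3279 to 3714 CPM in AVE0991 and 3620 to 4115 CPM in vehicle libraries. The 6 oligodendrocyte markers summed to 5470, 11782 and 5851 CPM in AVE0991 replicates 1, 2 and 3. In vehicle replicates 1, 2 and 3 they summed to 3609, 7773 and 7876 CPM, so vehicle replicate 1 was the lowest library and AVE0991 replicate 2 the highest. The 6 microglia markers summed to 279 to 391 CPM in AVE0991 and 300 to 356 CPM in vehicle libraries. The 5 endothelial markers summed to 98.8, 251 and 132 CPM in AVE0991 replicates 1, 2 and 3, against 99.1, 203 and 122 CPM in vehicle replicates 1, 2 and 3. The 10 cerebellar granule cell genes summed to 260 (replicate 1), 2268 (replicate 2) and 2213 CPM (replicate 3) in AVE0991 libraries, against 236 to 285 CPM in vehicle libraries. In these genes AVE0991 replicates 2 and 3 stand apart from the other 4 libraries. None of these markers was at 0 in any library. In bulk RNA, fewer cells of a type and less RNA per cell cannot be told apart.

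The members held 41.3%, 42.0% and 40.8% of the circular RNA counts in AVE0991 replicates 1, 2 and 3, against 41.3%, 39.4% and 39.9% in vehicle replicates 1, 2 and 3. The groups overlapped, with means of 41.4% ± 0.614 in AVE0991 and 40.2% ± 0.955 in vehicle libraries (SD, n = 3 each), given with no test because vehicle levels chose the rows. The 95% Wilson interval of each of these shares was at most 0.081 percentage points to either side, which covers counting error only. Within vehicle libraries, where the rule chose the rows, member means ran from 469 to 31379 CPM with a median of 742 CPM. In AVE0991 libraries, which the rule did not use, they ran from 228 to 46336 CPM with a median of 746 CPM. The single rank 1 row held 4.63% ± 0.957 of the counts in AVE0991 and 3.14% ± 0.0502 in vehicle libraries, ranks 2 to 10 held 6.90% ± 0.982 and 6.29% ± 0.637, ranks 11 to 100 held 17.1% ± 1.30 and 17.6% ± 0.270, and ranks 101 to 300 held 12.7% ± 0.526 and 13.2% ± 0.125. Levels declined smoothly across the limit at rank 300, with vehicle means of 474 to 469 CPM in the 5 rows just inside it and 468 to 460 CPM in the 5 rows just outside.

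Rank 1 stood far above every other member. It measured 36283, 47385 and 55341 CPM in AVE0991 replicates 1, 2 and 3, against 30956, 31933 and 31249 CPM in vehicle replicates 1, 2 and 3. The 3 AVE0991 libraries were all above the vehicle libraries, with the smallest gap in AVE0991 replicate 1. The difference was a log2 fold change of 0.65 (SE 0.19) and did not pass edgeR's quasi-likelihood test over all circular RNAs (adjusted p = 0.341). It passed without AVE0991 replicate 1 (0.83, edgeR adjusted p = 0.0482) and with DESeq2 (0.67, adjusted p = 0.039). Both of these fits kept AVE0991 replicates 2 and 3, with their high cerebellar granule cell genes. In the authors' deposited DESeq2 values the q of rank 1 was 0.0551, which was not under 0.05. Without AVE0991 replicates 2 and 3 the log2 fold change was 0.245.

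Ranks 3 to 7 had nearly the same counts as one another, and rank 2 followed the same pattern at a higher level. Rank 3 measured 5906, 8563 and 7025 CPM in AVE0991 replicates 1, 2 and 3, against 8202, 5993 and 7026 CPM in vehicle replicates 1, 2 and 3. Rank 7 measured 5796, 8395 and 6874 CPM in AVE0991, against 8045, 5847 and 6868 CPM in vehicle libraries. High and low libraries were the same in both rows, and the groups overlapped. The 10 pairs among ranks 3 to 7 had a chi-square of 0.0289 to 0.395 with 5 degrees of freedom when their counts were compared over the 6 libraries, below the 1.15 that independent counts of the same ratio would pass in 95% of cases. Rank 2, with a mean of 9033 CPM in AVE0991 and 8952 CPM in vehicle libraries, had a chi-square of 1.33 to 2.26 with each of them. Ranks 2 to 7 together held 4.44% ± 0.825 of circular RNA counts in AVE0991 and 4.38% ± 0.697 in vehicle libraries (SD, n = 3 each). The sources used here do not say whether 1 read could be counted in several rows, and these rows cannot be read as independent measurements.

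Of the remaining top 10, rank 8 measured 7768, 8897 and 12321 CPM in AVE0991 replicates 1, 2 and 3, against 7807, 6445 and 5846 CPM in vehicle replicates 1, 2 and 3. These groups overlapped, since AVE0991 replicate 1 lay below vehicle replicate 1 (log2 fold change 0.61, SE 0.23, edgeR adjusted p = 0.398). Rank 9 measured 7961, 9078 and 7990 CPM in the AVE0991 libraries, against 4838, 6967 and 7245 CPM in vehicle libraries (0.48, SE 0.17, edgeR adjusted p = 0.390). Rank 10 measured 6227, 7060 and 6450 CPM in AVE0991, against 5781, 6197 and 6052 CPM in vehicle libraries (0.21, SE 0.13, edgeR adjusted p = 0.625). In ranks 9 and 10 the AVE0991 libraries were all above the vehicle libraries, though in rank 10 AVE0991 replicate 1 and vehicle replicate 2 nearly touched.

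**Figure D1:**
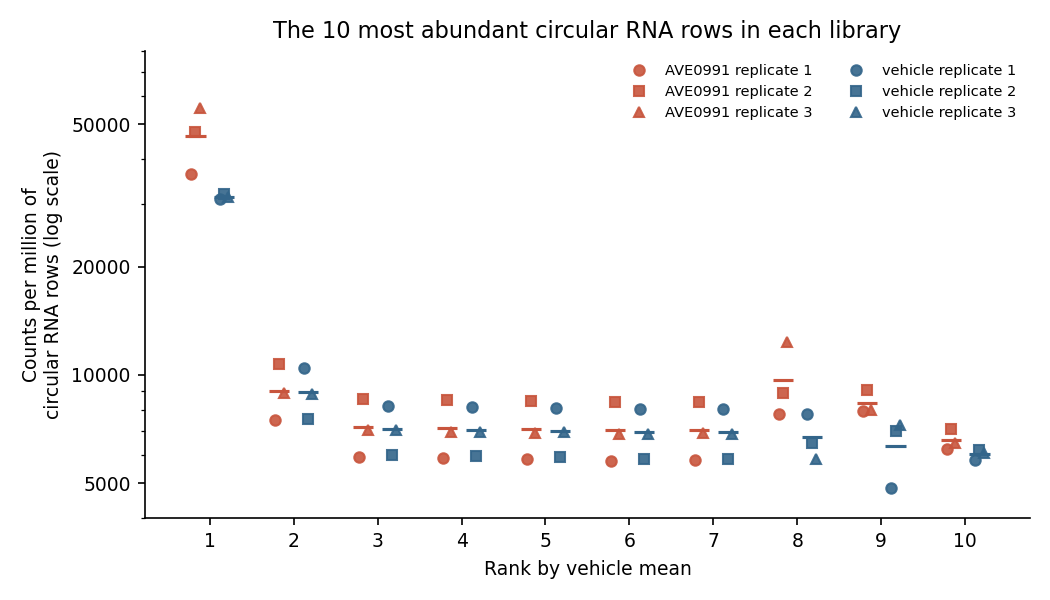
Level of the 10 members of highest vehicle mean, in CPM of circular RNA rows on a log scale, with 1 symbol per library and a bar at each group mean (AVE0991 left, vehicle right, n = 3 each). Rank 1 lies at 30956 to 55341 CPM, and ranks 3 to 7 repeat 1 pattern of high and low libraries.

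Few near-identical pairs were found beyond the top ranks. Of 44850 pairs of members, 15 had a chi-square under 1.15, and they tied 15 rows into 6 sets. The largest set was ranks 3 to 7, which gave 10 of the 15 pairs. The other pairs included some that were 4335 to 13353 identifier numbers apart. The median chi-square of all pairs was 202. Rows with close identifier numbers varied together: 55 pairs with adjacent numbers had a median Pearson r of 0.96 between their log2 CPM over the 6 libraries, 97 pairs that were 2 to 5 numbers apart had 0.85, and 44151 pairs over 100 numbers apart had 0.14. These are descriptions over 6 libraries, which share depth and tissue. Of the 300 members, 158 had another member within 5 identifier numbers, in 56 runs of 2 to 7 rows. Of the pairs with adjacent numbers 36.4% had counts that differed by less than the upper 5% point of chi-square, as did 14.4% of pairs that were 2 to 5 numbers apart and 0.723% of pairs over 100 apart.

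**Figure D2:**
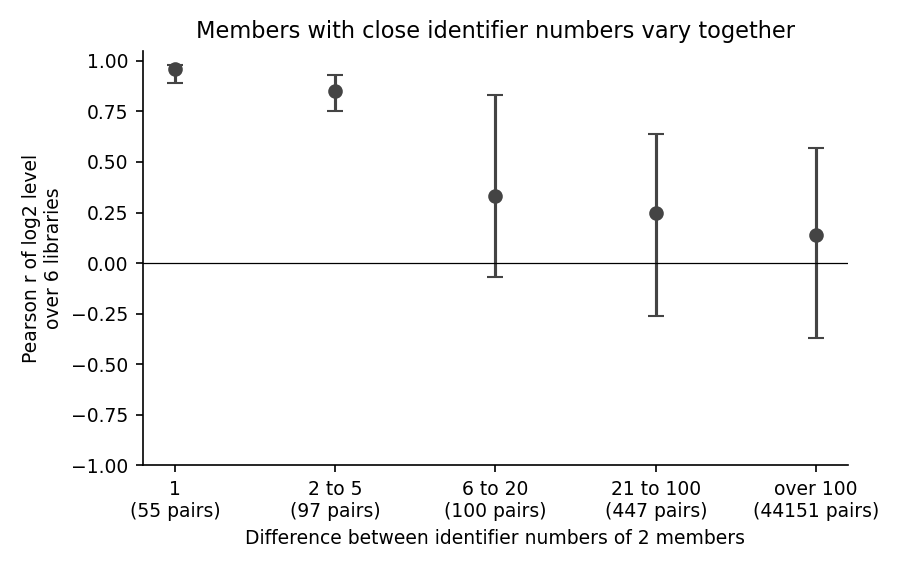
Pearson r of log2 CPM over the 6 libraries for pairs of members, grouped by the difference between their identifier numbers, with the median as a point and the quartiles as bars. The median is 0.96 for adjacent numbers and 0.14 for pairs over 100 apart.

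Concentration was also measured without the vehicle-based choice, from each library's own 300 highest rows. These held 41.6%, 44.0% and 43.4% of circular RNA counts in AVE0991 replicates 1, 2 and 3, against 41.5%, 39.5% and 40.1% in vehicle replicates 1, 2 and 3. The groups did not overlap, although AVE0991 replicate 1 and vehicle replicate 1 were nearly equal (means 43.0% ± 1.27 and 40.3% ± 1.03, SD, n = 3 each; exact permutation p = 0.10, the smallest possible). Without the rank 1 row the shares were 39.4%, 41.3% and 40.1% in AVE0991 libraries and 39.7%, 37.5% and 38.2% in vehicle libraries, and the groups overlapped (exact permutation p = 0.2). The number of rows needed to reach 50% of the counts was 516, 453 and 470 in AVE0991 and 521, 586 and 571 in vehicle libraries, again without overlap (exact permutation p = 0.10). The effective number of rows, the inverse of the sum of squared shares, was 414, 278 and 234 in AVE0991 and 461, 499 and 489 in vehicle libraries. It was lower in all 3 AVE0991 libraries (exact permutation p = 0.10), and most so in replicates 2 and 3. Without rank 1 it was 845, 672 and 735 in AVE0991, against 776, 951 and 878 in vehicle libraries, where the groups overlapped.

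**Figure D3:**
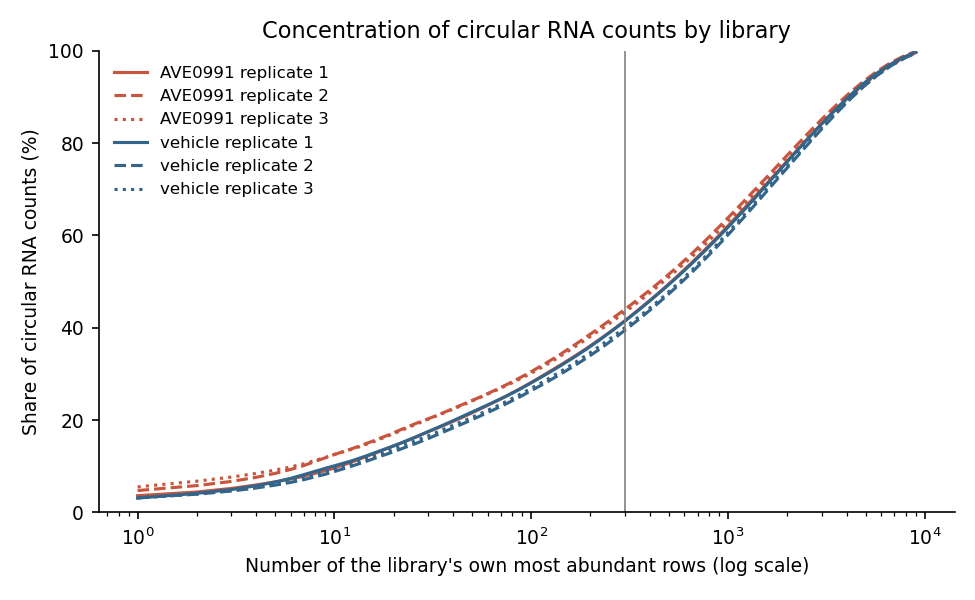
Cumulative share of circular RNA counts in percent held by each library's own most abundant rows, against their number on a log scale; the grey line marks 300 rows. At 300 rows the AVE0991 libraries lie at 41.6% to 44.0% and the vehicle libraries at 39.5% to 41.5%.

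Most members stayed abundant in AVE0991 libraries. Of the 300, 257 (85.7% of either list) were also among the 300 highest by AVE0991 mean, and 196 were among the own 300 highest rows of all 6 libraries. The lowest AVE0991 mean rank of a member was 809, and 6 members lay past rank 500. Among each library's own 300 highest rows were 271, 234 and 233 members in AVE0991 replicates 1, 2 and 3, against 276, 289 and 286 in the vehicle libraries that chose them. AVE0991 replicate 1 was therefore close to vehicle replicate 1, and AVE0991 replicates 2 and 3 held fewer. The Spearman rho over the 300 members, given as a description, was 0.784 and 0.797 between AVE0991 replicate 1 and AVE0991 replicates 2 and 3, but 0.855, 0.903 and 0.894 between AVE0991 replicate 1 and the 3 vehicle libraries. AVE0991 replicates 2 and 3 had a rho of 0.831 with each other and of 0.665 to 0.812 with vehicle libraries.

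Replicates varied more among AVE0991 libraries. The coefficient of variation (CV, the SD as a percent of the mean) of a member had a median of 19.5% (quartiles 13.3% and 29.5%) over the AVE0991 libraries and of 9.87% (5.66% and 15.8%) over the vehicle libraries. It was larger in AVE0991 for 247 of the 300 members, and for 6199 of all 9626 circular RNAs tested. Over those 9626 the medians were 28.4% in AVE0991 and 20.2% in vehicle libraries. Counting error alone gives a median CV of 3.04% at the members' depth. In CPM of circular RNA rows, AVE0991 replicates 1, 2 and 3 lay outside the range of the 3 vehicle libraries in 57.0%, 79.0% and 80.3% of the members, and in 49.4%, 67.1% and 65.5% of all circular RNAs tested. Replicates 2 and 3 were both below all vehicle libraries, with replicate 1 within their range, in 14.0% of the members and 8.73% of all, and both were above in 3.0% of the members and 7.13% of all. After TMM scaling these shares were 12.3% and 6.56% below and 4.33% and 8.75% above. The members were chosen on vehicle levels, so these shares are a description. The summed cerebellar granule cell genes move with this split, at 2213 and 2268 CPM in replicates 3 and 2 and 260 CPM in replicate 1; their part in it was not tested.

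The comparison of AVE0991 with vehicle asked whether the treatment was accompanied by a change in circular RNA levels. No member passed edgeR's test at an adjusted p under 0.05, as no circular RNA did among the 9626 tested (percent called 0.0% in either direction; smallest adjusted p = 0.341). At an unadjusted p under 0.05, 29 members were higher and 22 lower (9.67% and 7.33% of members), against 6.19% higher and 4.7% lower among all circular RNAs tested. The limma-voom fit called 0 members and 0.0% of all. DESeq2 called 10 members higher and 9 lower, 3.33% and 3.0% of the members, against 1.02% and 0.831% of all circular RNAs. Of the lower calls 5 fell in a set of near identifier numbers, described below, and of the higher calls 4 fell in another. The calls therefore cannot be counted as separate observations. The median SE of the edgeR log2 fold change was 0.19 for members and 0.33 for all circular RNAs tested. Its part in the shares called was not tested. All 19 members called by DESeq2 had groups that did not overlap, but the calls used the same counts, so this is no separate support for them. The authors' deposited table gave 10 members higher and 7 lower at a q under 0.05, against 1.31% and 0.755% of its circular RNAs, and 14 of its 17 members were among the 19 called by DESeq2 here.

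Differences between the groups were small for most members. The members' median log2 fold change was -0.02 (quartiles -0.20 and 0.17), the same as the median of all circular RNAs tested, -0.02 (-0.34 and 0.33). The TMM scaling of this fit centres log ratios near 0, so medians near 0 are in part set by the scaling. With library totals and no TMM, the members' median was -0.0984. All 10 of the highest ranks were above 0, with a median of 0.10, but ranks 2 to 7 follow 1 pattern and cannot be counted separately. Ranks 11 to 100 and ranks 101 to 300 had medians of -0.02 and -0.03. A difference of at least 2-fold was seen in 4 members higher and 4 lower, 2.67% of the members against 12.8% of all (7.23% higher and 5.61% lower). The median moved with the libraries that chose the rows: it was 0.02 for the 300 highest by the mean of all 6 libraries and 0.08 for the 300 highest by AVE0991 mean.

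In CPM of circular RNA rows, AVE0991 libraries were all above vehicle libraries in 24 members and all below in 40, or 8.0% and 13.3% of the members, against the 6.24% and 12.1% of all circular RNAs tested. After TMM scaling, which trims rows of extreme counts or ratios before it sets the scale, the split was 37 higher and 28 lower (12.3% and 9.33%, against 8.39% and 9.34% of all). The direction of the majority thus turned with the scaling. Without AVE0991 replicate 1, which leaves replicates 2 and 3 with their high cerebellar granule cell genes, edgeR called 5 members higher and 3 lower (1.67% and 1.0%, against 1.49% and 0.217% of all circular RNAs), and 39 were higher and 52 lower at an unadjusted p under 0.05 (10.0% and 8.26% of all). Without AVE0991 replicates 2 and 3 it called 0 (0.0% of all in either direction), with 17 members higher and 14 lower at an unadjusted p under 0.05 (1.49% and 3.66% of all), and the remaining AVE0991 library was assumed to vary like the vehicle libraries.

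**Figure D4:**
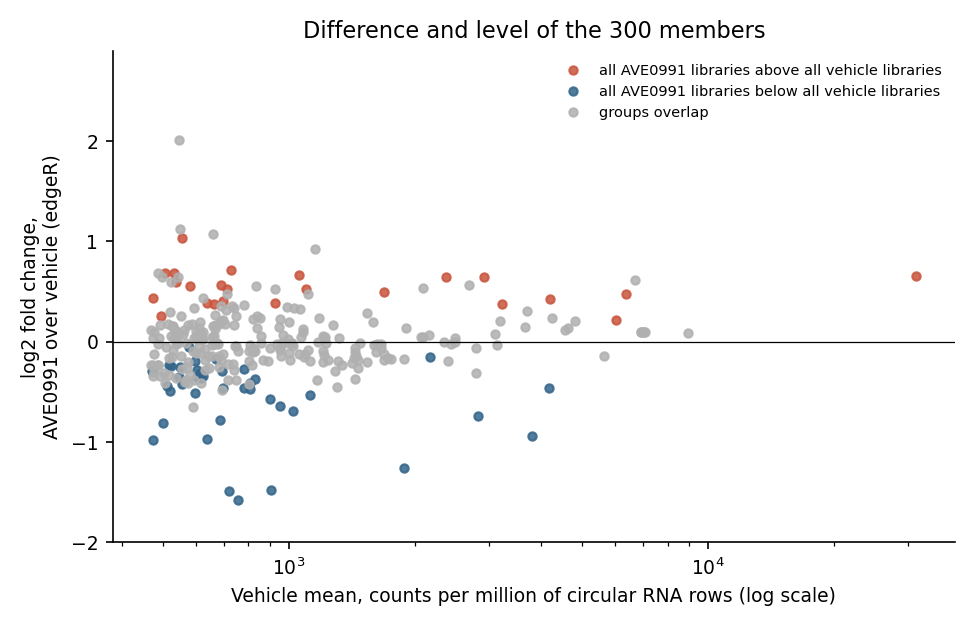
Log2 fold change of AVE0991 over vehicle from edgeR for the 300 members against their vehicle mean in CPM on a log scale, coloured by whether the 3 AVE0991 libraries lie all above (24), all below (40) or among the 3 vehicle libraries. Differences spread from -1.57 to 2.01 around a median of -0.02.

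Since no member passed, those of smallest p in each direction are given with their values. In the lower direction these were ranks 157, 118, 295, 42 and 195. The members were chosen on vehicle levels, which favours rows that were lower in AVE0991 libraries. By AVE0991 mean, ranks 157, 118 and 195 stood at 734, 529 and 534, outside the 300 highest. Rank 295 had the lowest AVE0991 mean of all members, 228 CPM. Rank 157, mmu_circ_0007275, measured 280, 219 and 234 CPM in AVE0991 replicates 1, 2 and 3, against 906, 557 and 698 CPM in vehicle replicates 1, 2 and 3. The 3 AVE0991 libraries were close to one another, replicate 1 included, and all were below the lowest vehicle library. The log2 fold change was -1.49 (SE 0.22, edgeR adjusted p = 0.341; DESeq2 adjusted p = 8.84e-06). Rank 118, mmu_circ_0007963, measured 377, 307 and 247 CPM in the AVE0991 libraries, against 1171, 625 and 922 CPM in vehicle libraries, again without overlap (-1.48, SE 0.26, edgeR adjusted p = 0.341; DESeq2 adjusted p = 0.000471). Rank 295 measured 281, 181 and 223 CPM in AVE0991, against 482, 486 and 454 CPM in vehicle libraries, which were close to one another (-0.98, SE 0.18, edgeR adjusted p = 0.341). Vehicle replicate 1 was the highest library in ranks 157 and 118, and without it their log2 fold changes were -1.26 and -1.22.

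Ranks 118, 42 and 195 lie near one another in identifier number. Together with ranks 17, 18, 26 and 145 they make up the 7 members within 30 numbers of rank 118, a set formed after the values were seen. All 7 had AVE0991 libraries below all vehicle libraries, with log2 fold changes of -1.57 to -0.46, 6 had an unadjusted p under 0.05, and DESeq2 called 5. Among all circular RNAs tested, 12.1% were lower without overlap in CPM, 4.7% were lower at that p and 0.831% were called lower by DESeq2. The set was built around rows of smallest p. Its rows were also chosen on vehicle levels, which favours falls, and rank 145 stood at 752 by AVE0991 mean. Nothing is therefore read from the counts of this set. Rank 18 was the second most abundant of them, at 1892, 1399 and 2343 CPM in the AVE0991 libraries, against 4531, 3433 and 3440 CPM in vehicle libraries (-0.94, SE 0.24, edgeR adjusted p = 0.341). Rank 42 measured 760, 519 and 948 CPM in the AVE0991 libraries, against 2384, 1668 and 1597 CPM in vehicle libraries (-1.26, SE 0.27). Rank 195 measured 264, 320 and 343 CPM in AVE0991, against 811, 563 and 538 CPM in vehicle libraries (-0.97, SE 0.23). Vehicle replicate 1 was the highest library in ranks 42 and 195 as well, and without it their log2 fold changes were -1.03 and -0.726. In ranks 18 and 42 AVE0991 replicate 1 lay between the other AVE0991 libraries. After TMM scaling the groups of rank 17 overlapped. Whether the 7 rows share reads was not tested, so they cannot be counted as 7 separate observations.

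In the higher direction the smallest p belonged to ranks 156, 278, 257, 172 and 25. Rank 156, mmu_circ_0003941, measured 965, 1192 and 1220 CPM in AVE0991 replicates 1, 2 and 3, against 664, 732 and 787 CPM in vehicle replicates 1, 2 and 3 (log2 fold change 0.72, SE 0.16, edgeR adjusted p = 0.341; DESeq2 adjusted p = 0.00171). Rank 278, mmu_circ_0000351, measured 664, 847 and 792 CPM in AVE0991, against 479, 504 and 533 CPM in vehicle libraries (0.69, SE 0.16, edgeR adjusted p = 0.341; DESeq2 adjusted p = 0.00171). In both rows AVE0991 replicate 1 was the lowest of its group and still above every vehicle library. Rank 25 was the most abundant of the 5, at 3964, 4107 and 4887 CPM in AVE0991 libraries and 3241, 2923 and 2610 CPM in vehicle libraries (0.65, SE 0.17, edgeR adjusted p = 0.341). Rank 172 measured 878, 984 and 1016 CPM in AVE0991, against 628, 740 and 700 CPM in vehicle libraries, again without overlap (log2 fold change 0.56). Ranks 156, 160, 257 and 261 form a second set of near numbers, also formed after the values were seen, spanning 5 numbers. All 4 had AVE0991 libraries above all vehicle libraries in CPM, as did 6.24% of all circular RNAs tested, with log2 fold changes of 0.53 to 0.72. Ranks 172 and 278 lie within 30 numbers of each other. Rank 25 had 2 members within 30 numbers, with log2 fold changes of 0.53 and 0.66. Whether these rows share reads was not tested, so the 5 ranks of smallest p cannot be counted as 5 separate observations.

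**Figure D5:**
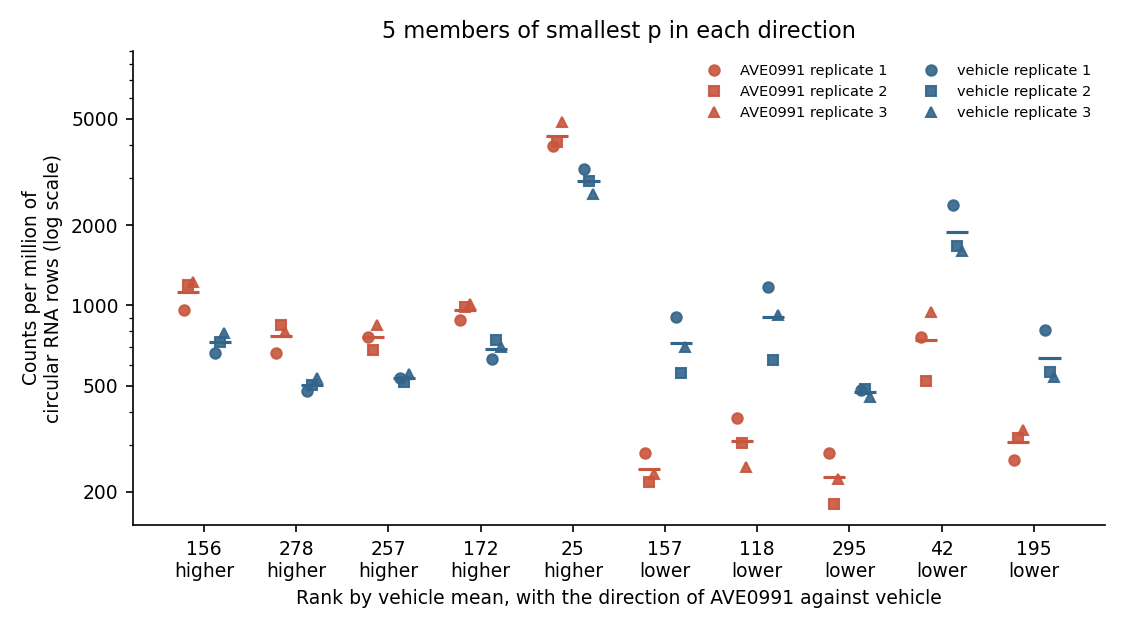
CPM of circular RNA rows, on a log scale, of the 5 members of smallest p in each direction, with 1 symbol per library and a bar at each group mean (AVE0991 left, vehicle right, n = 3 each). The groups do not overlap in any of the 10, and none passes edgeR's test over all circular RNAs.

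In some rows a wide difference or a wide spread rested on 1 or 2 libraries. Rank 249 had the largest log2 fold change of all members, 2.01 (SE 0.71, edgeR adjusted p = 0.386), from 483, 1160 and 4438 CPM in AVE0991 replicates 1, 2 and 3, against 518, 552 and 572 CPM in vehicle libraries. Replicate 1 was below every vehicle library and replicate 3 far above. Rank 248 measured 471, 605 and 2250 CPM in AVE0991, against 475, 580 and 593 CPM in vehicle libraries. Rank 243 was at 590, 1167 and 1439 CPM in the AVE0991 libraries, against 576, 527 and 564 CPM in vehicle libraries, and passed edgeR's test without AVE0991 replicate 1 (log2 fold change 1.35, adjusted p = 0.0175). In the authors' deposited DESeq2 values its q was 0.00817. Rank 82 showed the opposite split, at 1472, 539 and 555 CPM in the AVE0991 libraries, against 1173, 1256 and 1074 CPM in vehicle libraries, so replicate 1 was above and replicates 2 and 3 below all vehicle libraries. Its log2 fold change was only -0.39 (SE 0.36) over all libraries. It passed edgeR's test without AVE0991 replicate 1 (-0.97, adjusted p = 0.0367). These 4 rows were chosen after their values were seen. Cerebellar granule cell genes were high in AVE0991 replicates 2 and 3, as given above, and their part in these rows was not tested.

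Genes for the formation and turnover of circular RNAs were measured on the gene rows of the same libraries. Of 42 listed genes 40 were tested, 0 passed edgeR's test over all genes in either direction (0.0344% of all genes were called higher and 0.83% lower), and 5 were higher and 7 lower at an unadjusted p under 0.05, where 10.9% of all genes were higher and 12.7% lower. The list's median log2 fold change was 0.01, against -0.01 for all genes tested. Elavl2, a neuronal RNA-binding protein, measured 42.6, 43.3 and 30.1 CPM of gene counts in AVE0991 libraries, against 59.7, 68.3 and 76.9 CPM in vehicle libraries (-0.82, SE 0.17, edgeR adjusted p = 0.0774). G3bp2, a stress granule protein, averaged 146 ± 14.2 CPM in AVE0991 and 202 ± 10.6 CPM in vehicle libraries (SD, n = 3 each; log2 fold change -0.47, SE 0.11, edgeR adjusted p = 0.0948), and Sf3b1, a core subunit of the U2 snRNP, stood at -0.37 (SE 0.10, edgeR adjusted p = 0.118). Upf1, an RNA helicase of nonsense-mediated decay, stood at 0.34 (SE 0.09, edgeR adjusted p = 0.107). Mbnl3, of the muscleblind family, of which the Drosophila member promotes circularisation of its own transcript, was under 1 CPM in every library and stood at -1.15 (SE 0.35, edgeR adjusted p = 0.131). These 5 genes were named for the smallest p of the list. In each of them the groups did not overlap, which that choice favours, so this is a description. None passed over all genes.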

How the data were processed

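RNA of 6 libraries (3 AVE0991, 3 vehicle) was analysed. The deposited table held estimated counts, 81.6% of them whole on gene rows and all whole on circular RNA rows, and FPKM values; on circular RNA rows the deposited FPKM column was a fixed multiple of the count within each library, so it carried no length. A second table held the authors' log2 fold changes with p-values and q-values, per the file headers from DESeq2. HISAT and mm9 are named in the submitters' processing notes; no source used here names the circular RNA caller or the annotation.

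Counts of circular RNA rows were fitted in R 4.3.3 with edgeR 4.0.16 (filterByExpr, TMM, robust quasi-likelihood F test, no covariate), apart from gene rows, whose estimated counts were rounded. The fit tested 9626 circular RNAs and 20363 genes, with Benjamini-Hochberg adjustment over each table and a threshold of 0.05. The common biological coefficient of variation was 38.2% and 24.7%. The SE was taken as the log2 fold change over the root of the F statistic. DESeq2 1.42.0, limma 3.58.1 (voom), other scalings, other choices of members and leaving out libraries were alternatives. Shares were compared by exact permutation in SciPy 1.17.1. No library pair agreed within sampling noise (chi-square of at least 2.88 per row), so none was treated as 1 library deposited again; this does not show separate animals. Members named by rule are ranks 1 to 10 and the 5 of smallest p in each direction; ranks 17, 18, 26, 82, 145, 160, 243, 248, 249 and 261 were named after their values were seen. The members, lists and tests were chosen with earlier results of these data known.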

Additional observations from a re-analysis of the deposited data

How the results depend on the processing

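The count of members called by edgeR was 0 in each direction with the other scalings, without a filter, with one fit of circular RNA and gene rows, with limma-voom, and under the 5 other choices of members. The exceptions were DESeq2, with 10 members higher and 9 lower (98 and 80 of all circular RNAs), and leaving out single libraries, where the counts ran from 0 to 5 higher and 0 to 3 lower (0 to 151 and 0 to 22 of all); every call in that range came from the fit without AVE0991 replicate 1. The median log2 fold change of the members was 0.0791 for the 300 highest by AVE0991 mean and 0.0778 without AVE0991 replicates 2 and 3, against -0.0216. It ran from -0.0374 to 0.0401 without single libraries and from -0.0984 (library totals without TMM) to 0.0358 (library sizes of gene rows) with the other scalings, so its sign is not fixed. The difference in the share of circular RNA counts among all counts, 0.11 percentage points, ran from -0.0172 to 0.206 without single libraries and changed sign without AVE0991 replicate 3. The log2 fold change of rank 2, 0.092, was -0.228 without AVE0991 replicates 2 and 3 and ran from -0.034 to 0.245 without single libraries, below 0 without AVE0991 replicate 2 and, at -0.0297, without vehicle replicate 2. The cause of these changes was not tested. With the replicate number as a block the members' median was -0.0332 and 0 circular RNAs were called. Same-numbered libraries had correlations of deviations of 0.054, -0.008 and -0.063. No pairing by number was seen, though 3 libraries per group cannot exclude one. The fits without AVE0991 replicates 2 and 3 and with 1 row per set of closely agreeing rows were added after the data were seen; the second left 0 calls and a median of -0.022. The depth of 1424780 to 1581448 counts put at least 116 counts on every member in every library.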
